A study of Rattus norvegicus with 10 samples.

Results

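The genes described here encode the scaffolds, kinases and spine proteins of the postsynaptic side of the synapse, and they were followed in cultured rat hippocampal neurons after chemical long-term potentiation (cLTP), a bath treatment used to strengthen synapses across a whole culture. They were chosen by name, as table rows whose gene symbol was 1 of 34 listed postsynaptic genes. The table held 33 of these among its 11615 genes, and Iqsec1 was not analysed here. Every group came from hippocampal cultures of Wistar rats on day 15 in vitro, and glial growth had been suppressed chemically on day 4 in all of them. The groups were mock cultures, which received the mock solution of the protocol, and cultures collected 5, 10, 60 and 120 min after the cLTP solution, with 2 biological repeats in each group. Neither the composition of the cLTP solution nor the collection time of the mock cultures is stated in the labels. Nothing in the labels says that repeats came from separate animals, so the p-values measure only the spread between these cultures.

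The postsynaptic density is a protein lattice under the membrane of the excitatory synapse. MAGUK proteins (the Dlg genes) hold glutamate receptors and adhesion molecules at the surface, GKAP proteins (the Dlgap genes) bind the MAGUKs from below, and SHANK and Homer proteins join this layer to the actin of the spine. CaMKII, the kinase activated by calcium entry during potentiation, and a set of regulators of small GTPases act within this lattice to change receptor number and spine shape.

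Sequencing depth was recovered as 32961534 to 54040657 reads per library, the totals behind the CPM values. The fewest reads behind any value given below for these genes were 770, for Homer2 in 5 min replicate 1. Levels are CPM, the reads of a gene per 1e6 reads of its library, after scaling between libraries, and fold changes are differences of log2(CPM + 1), each tested with limma over all 11615 genes at an adjusted p threshold of 0.05. "Rose" and "fell" are used for genes past that threshold. Positions are the spans listed for the genes in the deposited table, on the rat build rn6 named in the submitters' processing notes.

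In mock cultures the mean levels of the 33 genes lay between 22.3 and 758 CPM, and between 4.55 and 177 CPM per kilobase of the length listed for each gene. Per kilobase, the most abundant was Camk2a at 177 CPM, which encodes the alpha subunit of CaMKII, followed by Dlg4 at 170.4, the main MAGUK of the postsynaptic density, and Ppp1r9b at 132, which encodes spinophilin. Camk2a and Dlg4 were close, and the next genes in this order, Agap2 at 94.3 and Dbn1 at 65.7 CPM per kilobase, lay clearly lower. Within CaMKII the per-kilobase mock levels were 177 for Camk2a, 65.5 for Camk2b, 56.7 for Camk2g and 16.3 for Camk2d. The place of Camk2a above Camk2b rests on listed lengths of 1494 and 11559 bases. Before division by length, Camk2b was the highest of the 33 genes at 758 CPM, and Camk2a had 264 CPM. Iqsec2 at 4.94 and Shank2 at 4.55 CPM per kilobase were the lowest, and these values depend on the listed length, which for Shank2 was 26111 bases.

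Of the 33 genes, 1 was called against mock within the first hour and 22 were called at 120 min. None was called at 5 min (2 had an unadjusted p under 0.05) and none at 10 min (7 had). Of all 11615 genes, 1862 had an unadjusted limma p under 0.05 at 5 min and 1148 at 10 min. Over all genes, 0% were called in either direction at 5 min, and 0.0344% higher and 0% lower at 10 min. The added limma-voom fit also called none of the 33 at either time. The median log2 fold change of the 33 genes was -0.020 at 5 min and -0.082 at 10 min, with 23 and 25 estimates below 0. Over all 11615 genes, 5746 and 5715 estimates were below 0 at these times. At 10 min, replicate 1 was above replicate 2 for 29 of the 33 genes, by a median of 0.12 on the log2 scale.

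Shank1, a scaffold that binds GKAP from below and Homer at its other end, had the lowest estimate of the set at both early times. Shank1 (chr1:100297157-100344377, plus strand) had 103 and 101 CPM in mock cultures, 89.3 and 82.7 at 5 min, 90.7 and 79.1 at 10 min, 91.5 and 92.4 at 60 min and 71.2 and 73.2 at 120 min. All 8 cLTP libraries were below both mock libraries, and how many of all genes show this order was not counted. Against mock, the log2 fold change of Shank1 was -0.25 (SE 0.061, limma adjusted p = 0.19) at 5 min, -0.27 (SE 0.061, limma adjusted p = 0.25) at 10 min and -0.15 (SE 0.061, limma adjusted p = 0.23) at 60 min, none of them past the threshold. In the authors' deposited table Shank1 was lower at 10 min, with a log2 fold change of -0.27 and an adjusted p of 0.020. Without 5 min replicate 1, Shank1 passed the threshold at 5 min (limma adjusted p = 0.026, with adjusted p up to 0.76 over the alternatives). That arm was then the lower of the 2 libraries alone, assumed to vary like the other groups.

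**Figure D1:**
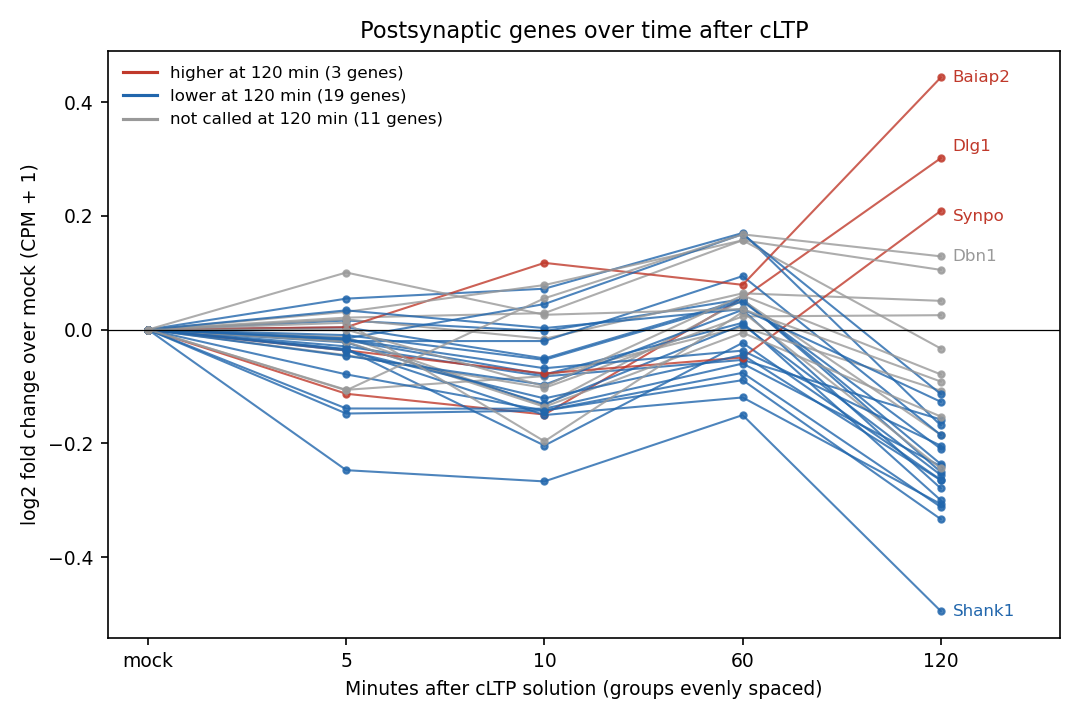
Mean log2 fold change over mock (vertical axis, from CPM + 1) of each of the 33 postsynaptic genes at 5, 10, 60 and 120 min (horizontal axis, groups evenly spaced), 1 line per gene, coloured by its call at 120 min. The lines lie between -0.27 and 0.17 up to 60 min and between -0.49 and 0.44 at 120 min. At 120 min 19 genes are lower, 3 are higher and 11 are not called.

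At 60 min, 1 of the 33 genes rose and none fell, while 6.6% of all genes were called, with 4.64% higher and 1.96% lower. That gene was Agap2, which encodes a GTPase-activating protein for Arf that also enhances phosphoinositide kinase signalling in neurons. Agap2 (chr7:70364813-70377422, plus strand) had 459 and 462 CPM in mock cultures, 461 and 450.3 at 5 min, 476 and 475 at 10 min, 534 and 501 at 60 min and 424 and 428 at 120 min. Both 60 min libraries stood above every other library, and both 120 min libraries stood below all the others. Agap2 averaged 518 ± 23.4 CPM at 60 min and 461 ± 2.01 CPM in mock (SD, n = 2 each), a rise of 12.3% (log2 fold change 0.17, SE 0.040, limma adjusted p = 0.028). At 120 min it fell below mock (log2 fold change -0.11, SE 0.040, limma adjusted p = 0.045). The 120 min minus 60 min difference was -0.28 (SE 0.040, limma adjusted p = 2.7e-04). The rise at 60 min lost its call when either mock library, 60 min replicate 1 or either 120 min library was left out, and with library totals in place of the scaling factors (57.3% of all calls at 60 min were then higher, against 70.3%), with adjusted p between 0.019 and 0.26 over the alternatives. The fall at 120 min lost its call when any single mock, 10 min or 120 min library was left out and with median-of-ratios scaling factors, with adjusted p between 0.0042 and 0.17, and in the authors' deposited table its adjusted p at 120 min was 0.056.

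Among genes not called at 60 min, Dlgap3, Dbn1, Shank3 and Homer3 had the highest estimates, with log2 fold changes of 0.17 (limma adjusted p = 0.10), 0.17 (adjusted p = 0.11), 0.16 (adjusted p = 0.10) and 0.16 (adjusted p = 0.20). Dlgap3 was called higher at 60 min without 60 min replicate 2 (adjusted p = 0.031), where the higher of the 2 libraries stood alone and was assumed to vary like the other groups. In the authors' deposited table Shank3 and Dbn1 were higher at 60 min, with log2 fold changes of 0.16 (adjusted p = 0.041) and 0.17 (adjusted p = 0.042).

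At 120 min, 19 of the 33 genes were lower than mock and 3 were higher, while 37.3% of all genes were called, with 16.9% lower and 20.4% higher. The 19 lower genes were 57.6% of those measured and the 3 higher genes 9.09%. The median log2 fold change of the 33 genes was -0.19, against -0.0066 for all genes. Libraries at 120 min did not overlap with mock for 31 of the 33, and for 8543 of all 11615 genes. The falls were small, between 7.55% for Agap2 and 29.04% for Shank1 on the log2(CPM + 1) scale. All 5 regulators of small GTPases and all 3 neuroligins fell, as did 3 of 4 MAGUKs, 3 of 4 CaMKII subunits, 2 of 4 GKAP genes and 1 of 3 SHANK genes, whereas neither Homer gene was called. The 3 genes that rose were Baiap2, Dlg1 and Synpo. With library totals in place of the scaling factors 36.4% of all calls were higher, against 54.7%, and 23 of the 33 genes were lower and 2 higher. Leaving out mock replicate 2 left 12 of the 33 genes lower, the fewest over all libraries left out in turn. The authors' deposited table had 19 of the 33 lower and 4 higher at 120 min, beside 18.8% lower and 22.8% higher over all its genes. Of the 22 calls made here, 21 were called there in the same direction.

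**Figure D2:**
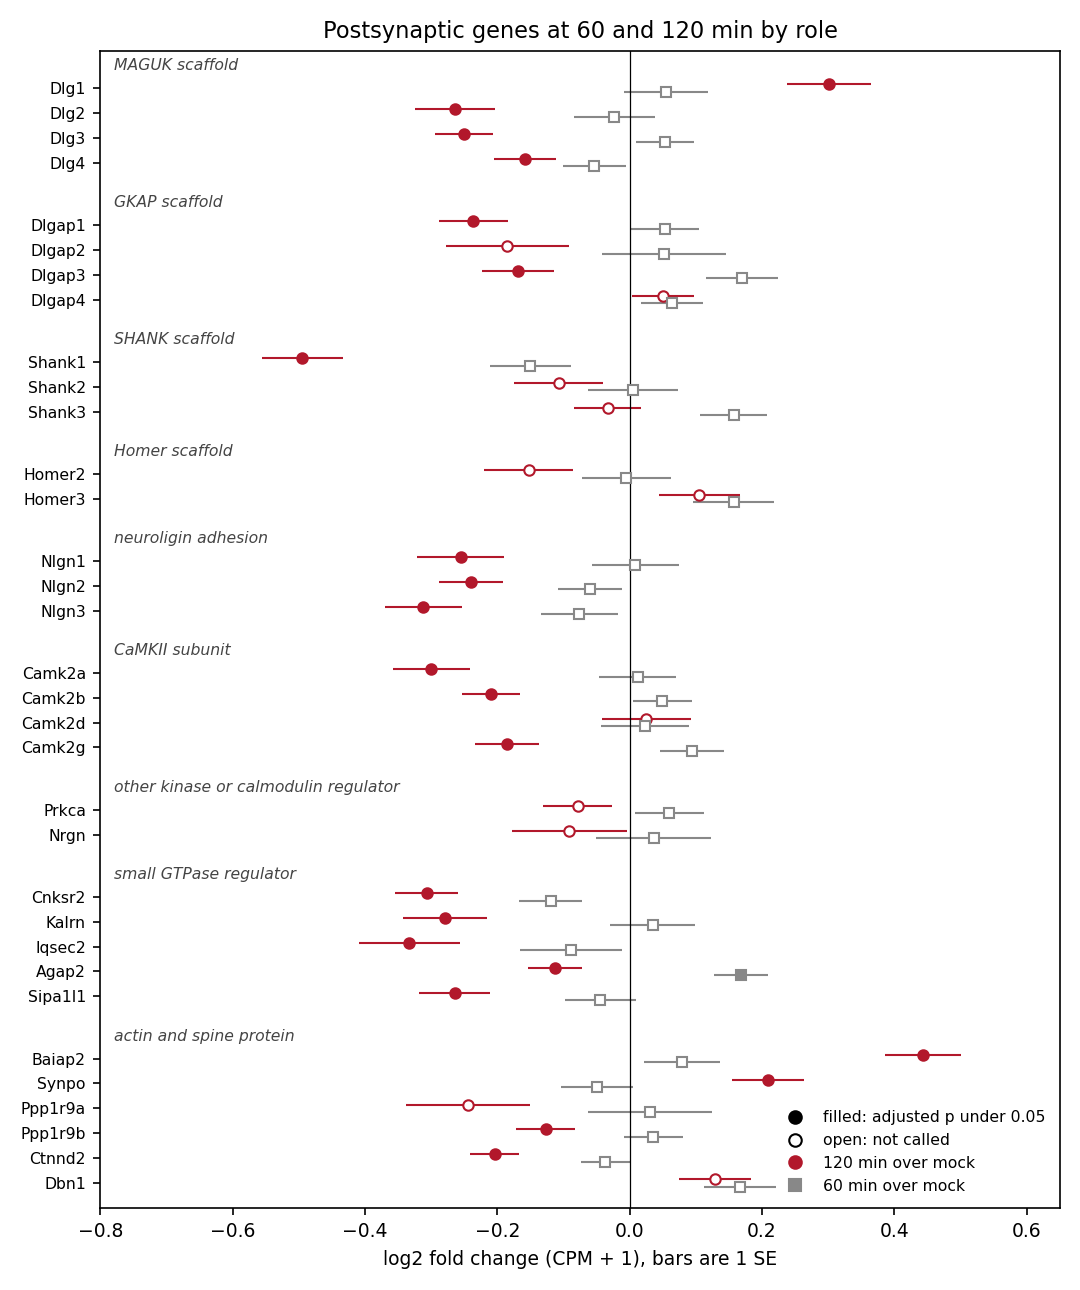
Log2 fold change over mock (horizontal axis, bars are 1 SE) of the 33 genes at 120 min (red circles) and 60 min (grey squares), grouped by role, with filled symbols for adjusted p under 0.05. At 120 min the filled symbols lie left of 0 for 19 genes and right of 0 for Baiap2, Dlg1 and Synpo, and at 60 min only Agap2 is filled.

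Baiap2 had the largest rise among the 33 genes. It encodes an actin-regulating protein of the inverse BAR family that binds MAGUK and SHANK proteins and passes signals of Rac and Cdc42 to the actin cytoskeleton. Baiap2 (chr10:109107389-109181962, plus strand) had 87.03 and 86.6 CPM in mock cultures, 85.7 and 88.5 at 5 min, 94.6 and 93.9 at 10 min, 98.4 and 85.6 at 60 min and 119 and 118 at 120 min. Both 120 min libraries were above all the others, and the 2 nearly coincided. Its means were 118 ± 0.339 CPM at 120 min and 86.8 ± 0.297 CPM in mock (SD, n = 2 each), a rise of 35.96% (log2 fold change 0.44, SE 0.057, limma adjusted p = 1.0e-04).

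Dlg1, the MAGUK known for carrying AMPA receptors along the secretory path as well as for its place at the synapse, also rose. Dlg1 (chr11:72164566-72378983, minus strand) had 55.5 and 55.4 CPM in mock cultures, 52.04 and 50.3 at 5 min, 50.9 and 48.9 at 10 min, 53.9 and 61.6 at 60 min and 66.1 and 71.1 at 120 min. All 4 libraries of 5 and 10 min lay below mock, 60 min replicate 2 lay above it and both 120 min libraries were the highest. The means were 68.6 ± 3.57 CPM at 120 min and 55.4 ± 0.108 CPM in mock, a rise of 23.2% (log2 fold change 0.30, SE 0.063, limma adjusted p = 0.0031).

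Synpo encodes synaptopodin, the actin-binding protein of the spine apparatus. Synpo (chr18:55870720-55891710, minus strand) had 53.6 and 52.2 CPM in mock cultures, 52.7 and 50.5 at 5 min, 52.6 and 47.7 at 10 min, 52.02 and 50.2 at 60 min and 61.3 and 61.3 at 120 min. All libraries outside the 120 min group lay below both 120 min libraries. The means were 61.3 ± 0.0401 CPM at 120 min and 52.9 ± 0.980 CPM in mock, a rise of 15.6% (log2 fold change 0.21, SE 0.054, limma adjusted p = 0.010). The call was lost without mock replicate 2, without either 120 min library, and with library totals in place of the scaling factors (adjusted p up to 0.072).

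**Figure D3:**
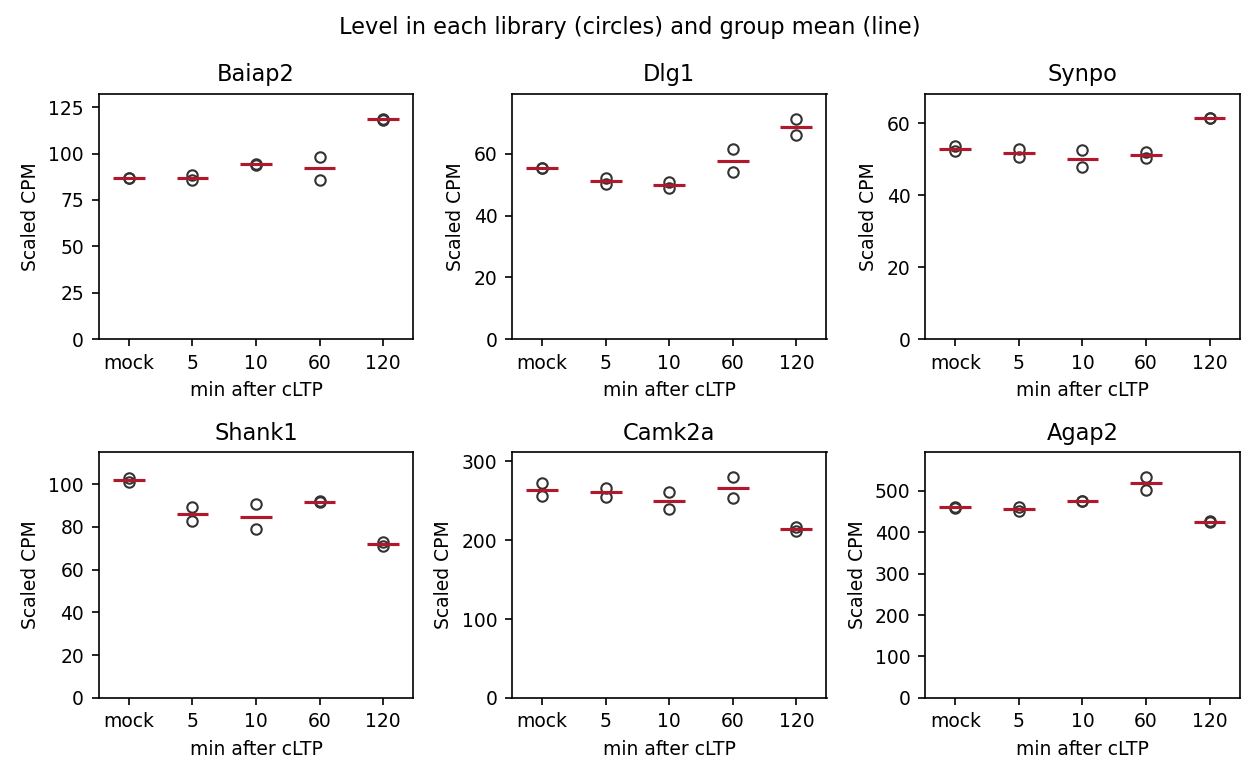
Scaled CPM of single libraries (points) and group means (lines) for selected members in mock cultures and at 5, 10, 60 and 120 min. Baiap2 and Dlg1 have both 120 min libraries above every other library, while both 120 min libraries of Shank1 and Camk2a lie below every other library.

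The promoters of the 3 genes that rose, and of Camk2a as the gene with the highest mock level per kilobase among those that fell, are shown because these 3 genes rose while 19 others of the set fell. Each window runs from 250 bases before to 50 bases after the start of the gene on its own strand, from RefSeq on build GRCr8, which is not the build of the deposited table. Baiap2 lies at chr10:105721306-105721605 (plus strand), Dlg1 at chr11:82607748-82608047 (minus), Synpo at chr18:56347310-56347609 (minus) and Camk2a at chr18:56648930-56649229 (plus). Capitals mark matches to the motifs named after the sequences.
Baiap2: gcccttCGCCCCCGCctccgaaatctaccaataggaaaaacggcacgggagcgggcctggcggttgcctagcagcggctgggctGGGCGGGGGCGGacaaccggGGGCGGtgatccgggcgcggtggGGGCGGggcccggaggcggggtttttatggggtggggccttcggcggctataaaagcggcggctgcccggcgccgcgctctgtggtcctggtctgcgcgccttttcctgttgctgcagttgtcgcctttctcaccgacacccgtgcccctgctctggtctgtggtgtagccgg
Dlg1: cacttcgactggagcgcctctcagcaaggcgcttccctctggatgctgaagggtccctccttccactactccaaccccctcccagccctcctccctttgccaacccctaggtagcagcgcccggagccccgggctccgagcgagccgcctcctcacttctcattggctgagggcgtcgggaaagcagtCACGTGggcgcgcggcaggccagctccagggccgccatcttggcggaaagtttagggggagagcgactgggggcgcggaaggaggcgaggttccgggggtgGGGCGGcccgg
Synpo: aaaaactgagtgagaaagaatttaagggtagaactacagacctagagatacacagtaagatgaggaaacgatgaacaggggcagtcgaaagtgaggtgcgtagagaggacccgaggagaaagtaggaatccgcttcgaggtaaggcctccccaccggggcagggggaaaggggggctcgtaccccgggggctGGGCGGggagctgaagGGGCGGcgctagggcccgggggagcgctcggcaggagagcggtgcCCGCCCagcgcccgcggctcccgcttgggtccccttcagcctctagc
Camk2a: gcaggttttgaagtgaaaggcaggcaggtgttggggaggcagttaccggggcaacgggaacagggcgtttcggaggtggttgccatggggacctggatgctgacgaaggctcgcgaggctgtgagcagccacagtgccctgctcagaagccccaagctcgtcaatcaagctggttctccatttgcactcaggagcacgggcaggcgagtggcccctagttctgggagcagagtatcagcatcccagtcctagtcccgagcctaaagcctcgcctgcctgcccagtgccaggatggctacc

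The motifs searched on both strands were CRE (TGACGTCA), AP-1 (TGANTCA), the E-box (CACGTG), EGR (GCGNGGGCG), the GC box (GGGCGG), the CArG box and the MEF2 element. A promoter was found for 27 of the 33 genes, and none was matched for Shank1, Shank2, Agap2, Homer2, Dlg3 and Dlgap2. In the 3 rising genes the matches were GC boxes in all of them, an E-box in Dlg1 and EGR matches in Baiap2, where an EGR match overlaps GC boxes. Over the 27 promoters, the EGR motif was found in Baiap2, Camk2b and Iqsec2, of which the last 2 fell, and it was in 4.98% of all 33469 promoters. The GC box was in 15 of the 27 (3 higher, 6 lower and 6 not called at 120 min) and in 33.1% of all promoters. The promoters of these genes were richer in G and C, with a median of 63.3% against 51.7% over all promoters. The 33469 promoters were not limited to the 11615 genes of the deposited table. Whether the differences hold against those genes was not tested. The E-box was in Dlg1 alone and in 6.42% of all promoters, and AP-1 was in Dlgap1 alone and in 7.33% of all. CRE (1.83% of all promoters), the CArG box (1.64%) and MEF2 (3.29%) were in none of the 27 windows.

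The other 3 MAGUK genes fell while Dlg1 rose. Dlg2 (chr1:155147804-157269740, plus strand), whose protein binds NMDA receptors, had 137 and 146 CPM in mock cultures, 136 and 139.97 at 5 min, 130.2 and 116 at 10 min, 137 and 142 at 60 min and 113 and 122 at 120 min. Dlg3 (chrX:70596577-70647298, plus strand), an X-linked gene whose protein also binds NMDA receptors and which is mutated in a human intellectual disability, had 134 and 135 CPM in mock cultures, 136 and 136 at 5 min, 139 and 129 at 10 min, 138 and 141 at 60 min and 114 and 112 at 120 min. Dlg4 (chr10:56627547-56653601, plus strand), whose protein anchors AMPA receptors through their auxiliary subunits, had 521 and 525 CPM in mock cultures, 492 and 533 at 5 min, 509 and 479 at 10 min, 511 and 496 at 60 min and 470.1 and 467 at 120 min. For all 3, both 120 min libraries were below both mock libraries. The means were 118 ± 6.33 CPM at 120 min and 142 ± 6.96 CPM in mock for Dlg2 (log2 fold change -0.26, SE 0.061, limma adjusted p = 0.0054), 113 ± 1.33 CPM at 120 min and 134 ± 0.738 CPM in mock for Dlg3 (log2 fold change -0.25, SE 0.043, limma adjusted p = 9.0e-04) and 468 ± 2.41 CPM at 120 min and 523 ± 3.04 CPM in mock for Dlg4 (log2 fold change -0.16, SE 0.047, limma adjusted p = 0.020). The call of Dlg4 was lost when any single mock or 120 min library was left out, and that of Dlg2 without mock replicate 2 or 120 min replicate 1 (adjusted p up to 0.10 for Dlg4 and 0.060 for Dlg2). The listed spans of 12 of the 33 genes overlap another listed gene, and only for Dlg2 does that gene's own span stay within 1000 kb (Crebzf, Tmem126a and Tmem126b). Whether the authors counted reads by strand is not stated in the labels.

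The GKAP genes, whose proteins bridge MAGUKs and SHANKs, gave 2 falls. Dlgap1 (chr9:118586186-119159807, plus strand) had 263 and 267 CPM in mock cultures, 252 and 280.2 at 5 min, 263 and 249 at 10 min, 282 and 269 at 60 min and 222 and 228 at 120 min. Dlgap3 (chr5:145234757-145304536, plus strand), whose loss causes compulsive grooming in mice, had 104 and 112 CPM in mock cultures, 113 and 111 at 5 min, 112 and 115 at 10 min, 128 and 115 at 60 min and 95.1 and 96.8 at 120 min. In both genes the 60 min libraries lay above mock and the 120 min libraries below it. The means were 225 ± 3.64 CPM at 120 min and 265 ± 2.45 CPM in mock for Dlgap1 (log2 fold change -0.24, SE 0.052, limma adjusted p = 0.0040) and 95.96 ± 1.19 CPM at 120 min and 108 ± 5.44 CPM in mock for Dlgap3 (log2 fold change -0.17, SE 0.054, limma adjusted p = 0.029). Dlgap3 was not called without mock replicate 2 or without either 120 min library (adjusted p up to 0.22). Dlgap2, with 28.8 and 33.5 CPM at 120 min, against 34.9 and 36.03 CPM in mock cultures, was not called (log2 fold change -0.19, SE 0.093, limma adjusted p = 0.14). Dlgap4, with 110.5 and 116 CPM at 120 min, against 110.2 and 109 CPM in mock cultures, was not called either (log2 fold change 0.051, SE 0.047, limma adjusted p = 0.43).

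Of the SHANK genes, whose proteins form the deep layer of the lattice, Shank1 fell and had the largest fall of the 33. Its means were 72.2 ± 1.40 CPM at 120 min and 102 ± 1.31 CPM in mock (SD, n = 2 each), lower by 29.04% (log2 fold change -0.49, SE 0.061, limma adjusted p = 7.3e-05). Shank2 was not called, with 107 and 114 CPM at 120 min, against 121 and 117 CPM in mock cultures (log2 fold change -0.11, SE 0.068, limma adjusted p = 0.24). Shank3 (chr7:130474288-130534678, plus strand), whose loss of a copy underlies a human neurodevelopmental syndrome, had 165 and 171 CPM in mock cultures, 171 and 169.7 at 5 min, 179.6 and 163 at 10 min, 193 and 182 at 60 min and 165 and 163 at 120 min. Its 120 min libraries were not separated from mock (log2 fold change -0.033, SE 0.050, limma adjusted p = 0.64), and its 60 min libraries were the highest. The Homer genes of the set, whose long proteins cross-link SHANK and metabotropic glutamate receptors, were not called. Homer2 had 20.95 and 19.04 CPM at 120 min, against 22.2 and 22.5 CPM in mock cultures (log2 fold change -0.15, SE 0.067, limma adjusted p = 0.095) and Homer3 had 48.6 and 46.96 CPM at 120 min, against 42.7 and 46.01 CPM in mock cultures (log2 fold change 0.10, SE 0.061, limma adjusted p = 0.20).

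Among the CaMKII subunits, the 2 that predominate in forebrain neurons fell. Camk2a (chr18:56193978-56295869, plus strand) had 256 and 272 CPM in mock cultures, 255 and 267 at 5 min, 261 and 239 at 10 min, 253 and 280.2 at 60 min and 217 and 212 at 120 min. Camk2b (chr14:86208895-86297652, minus strand), whose subunit binds actin filaments, had 753 and 763 CPM in mock cultures, 727 and 779 at 5 min, 747 and 714 at 10 min, 793 and 775 at 60 min and 648 and 662 at 120 min. Both genes had their 2 lowest libraries at 120 min. Camk2a averaged 214 ± 3.13 CPM at 120 min and 264 ± 11.3 CPM in mock, lower by 18.8% (log2 fold change -0.30, SE 0.058, limma adjusted p = 0.0019), and Camk2b averaged 655 ± 9.68 CPM at 120 min and 758 ± 7.08 CPM in mock, lower by 13.5% (log2 fold change -0.21, SE 0.044, limma adjusted p = 0.0032). Camk2g (chr15:3936786-3993868, plus strand), a subunit known to shuttle calcium and calmodulin towards the nucleus in cultured neurons, had 96.1 and 99.6 CPM in mock cultures, 96.7 and 96.3 at 5 min, 101 and 92.3 at 10 min, 105 and 104 at 60 min and 86.5 and 85.4 at 120 min. Its 120 min libraries were also below all others, with means of 85.96 ± 0.743 CPM at 120 min and 97.9 ± 2.49 CPM in mock (log2 fold change -0.19, SE 0.048, limma adjusted p = 0.010), and the call was lost without mock replicate 2 or 120 min replicate 2 (adjusted p up to 0.084). Camk2d, a subunit found in many tissues, had 38.3 and 38.1 CPM at 120 min, against 39.5 and 35.7 CPM in mock cultures, and these groups overlapped (log2 fold change 0.025, SE 0.067, limma adjusted p = 0.79).

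The other kinase and calmodulin-binding genes did not pass the test at 120 min. Prkca, a classical protein kinase C, had 186 and 185 CPM at 120 min, against 192 and 199.8 CPM in mock cultures (log2 fold change -0.079, SE 0.052, limma adjusted p = 0.26). Nrgn, whose product neurogranin holds calmodulin in dendrites, had 47.3 and 47.03 CPM at 120 min, against 48.8 and 51.9 CPM in mock cultures (log2 fold change -0.091, SE 0.087, limma adjusted p = 0.44).

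All 3 neuroligins, postsynaptic adhesion proteins that bind presynaptic neurexins, fell. Nlgn1 (chr2:111058792-111792962, minus strand), typical of excitatory synapses, had 83.6 and 86.1 CPM in mock cultures, 82.8 and 84.2 at 5 min, 82.5 and 72.6 at 10 min, 83.5 and 87.3 at 60 min and 66.99 and 75.05 at 120 min. Nlgn2 (chr10:56431588-56444844, minus strand), which belongs to inhibitory synapses and so lies outside the glutamatergic density, had 163 and 163 CPM in mock cultures, 149 and 146 at 5 min, 155 and 140.2 at 10 min, 157 and 155 at 60 min and 138 and 137 at 120 min. Nlgn3 (chrX:71199516-71221951, plus strand), found at both kinds of synapse, had 135 and 131 CPM in mock cultures, 123 and 129 at 5 min, 129 and 112 at 10 min, 126 and 126 at 60 min and 108 and 106 at 120 min. All 8 cLTP libraries were below both mock libraries for Nlgn2 and Nlgn3, and 6 of 8 were for Nlgn1. These orders all rest on the same 2 mock libraries, and how many of all genes show them was not counted. None of the 3 neuroligins was called before 120 min, with smallest limma adjusted p of 0.22 at 5 min, 0.39 at 10 min and 0.61 at 60 min. The means were 71.02 ± 5.70 CPM at 120 min and 84.9 ± 1.75 CPM in mock for Nlgn1 (log2 fold change -0.26, SE 0.066, limma adjusted p = 0.010), 138 ± 0.331 CPM at 120 min and 163 ± 0.209 CPM in mock for Nlgn2 (log2 fold change -0.24, SE 0.048, limma adjusted p = 0.0023) and 107 ± 1.92 CPM at 120 min and 133 ± 2.43 CPM in mock for Nlgn3 (log2 fold change -0.31, SE 0.058, limma adjusted p = 0.0014). Nlgn1 was not called without mock replicate 2 or 120 min replicate 1 (adjusted p up to 0.11).

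The regulators of small GTPases all fell. Besides Agap2 they were Cnksr2, a scaffold of Ras and Rac signalling at the density, Kalrn, the exchange factor for Rac that enlarges spines, Iqsec2, an exchange factor for Arf, and Sipa1l1, a GTPase-activating protein for Rap. Cnksr2 (chrX:39711201-39951649, plus strand) had 143 and 150.01 CPM in mock cultures, 139.5 and 147 at 5 min, 135 and 129 at 10 min, 137 and 133 at 60 min and 115 and 122 at 120 min. Kalrn (chr11:69484293-70025682, plus strand) had 177 and 183 CPM in mock cultures, 162 and 187 at 5 min, 176 and 160.5 at 10 min, 187 and 181 at 60 min and 147 and 148 at 120 min. Iqsec2 (chrX:22212137-22293810, plus strand) had 46.1 and 43.7 CPM in mock cultures, 42.2 and 38.7 at 5 min, 43.96 and 37.4 at 10 min, 44.01 and 40.3 at 60 min and 35.4 and 35.4 at 120 min. The 120 min libraries of these 3 genes were below every mock and 60 min library. The falls were 19.2% for Cnksr2 (118 ± 4.61 CPM at 120 min and 147 ± 4.72 CPM in mock, log2 fold change -0.31, SE 0.048, limma adjusted p = 4.3e-04), 17.6% for Kalrn (148 ± 0.488 CPM at 120 min and 179.6 ± 4.34 CPM in mock, log2 fold change -0.28, SE 0.064, limma adjusted p = 0.0052) and 20.6% for Iqsec2 (35.4 ± 0.0374 CPM at 120 min and 44.9 ± 1.75 CPM in mock, log2 fold change -0.33, SE 0.077, limma adjusted p = 0.0053). Sipa1l1 (chr6:106052212-106163249, plus strand) had 123 and 121 CPM in mock cultures, 116 and 123 at 5 min, 118 and 107 at 10 min, 121 and 116 at 60 min and 101 and 103 at 120 min. Its means were 102 ± 1.45 CPM at 120 min and 122 ± 1.21 CPM in mock, lower by 16.8% (log2 fold change -0.26, SE 0.054, limma adjusted p = 0.0026).

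The actin and spine proteins went both ways. Beside the rises of Baiap2 and Synpo, Ctnnd2 and Ppp1r9b fell. Ctnnd2 (chr2:83393282-84094315, plus strand), which encodes delta-catenin, a partner of cadherins in dendrites, had 215 and 215 CPM in mock cultures, 209.6 and 215 at 5 min, 207 and 203 at 10 min, 208 and 211 at 60 min and 185 and 188 at 120 min. Ppp1r9b (chr10:82800704-82816735, plus strand), whose product spinophilin brings a protein phosphatase to spine actin, had 579 and 598 CPM in mock cultures, 586 and 620.005 at 5 min, 597 and 582 at 10 min, 619.8 and 588 at 60 min and 548 and 530.01 at 120 min. Its relative Ppp1r9a (chr4:29978739-30241911, plus strand), which encodes neurabin, had 42.4 and 43.01 CPM in mock cultures, 40.8 and 45.5 at 5 min, 42.2 and 32.7 at 10 min, 44.3 and 43.1 at 60 min and 35.6 and 36.2 at 120 min. In all 3 the 120 min libraries were below mock. Ctnnd2 averaged 186 ± 2.15 CPM at 120 min and 215 ± 0.463 CPM in mock (log2 fold change -0.20, SE 0.037, limma adjusted p = 0.0013) and Ppp1r9b averaged 539 ± 12.7 CPM at 120 min and 589 ± 13.1 CPM in mock (log2 fold change -0.13, SE 0.045, limma adjusted p = 0.044). The fall of Ppp1r9b lost its call when any single mock, 10 min or 120 min library was left out (adjusted p up to 0.23). Ppp1r9a did not pass (log2 fold change -0.24, SE 0.093, limma adjusted p = 0.059), although it did under 7 of 18 alternatives, and its 10 min libraries were far apart. Dbn1, whose product drebrin coats spine actin, was not called, with 189.6 and 196 CPM at 120 min, against 182 and 171 CPM in mock cultures (log2 fold change 0.13, SE 0.054, limma adjusted p = 0.084). In the authors' deposited table Ppp1r9a was lower (log2 fold change -0.25, adjusted p = 5.4e-04) and Dbn1 was higher (0.13, adjusted p = 0.046) at 120 min.

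The 120 min cultures were also compared with the 60 min cultures directly. In this test 20 of the 33 genes were lower and 3 were higher at 120 min, while 35.8% of all genes were called, with 16% lower and 19.8% higher. The largest falls were in Shank1, with 72.2 ± 1.40 CPM at 120 min and 91.9 ± 0.641 CPM at 60 min (log2 fold change -0.34, SE 0.061, limma adjusted p = 0.0012), and Dlgap3, with 95.96 ± 1.19 CPM at 120 min and 122 ± 9.13 CPM at 60 min (log2 fold change -0.34, SE 0.054, limma adjusted p = 5.8e-04). Shank3 and Ppp1r9a, which were not called against mock, fell against 60 min by this test (log2 fold change -0.19, SE 0.050, limma adjusted p = 0.012 for Shank3, and log2 fold change -0.27, SE 0.093, limma adjusted p = 0.038 for Ppp1r9a). Dlg4 fell against mock but was not called against 60 min (log2 fold change -0.10, SE 0.047, limma adjusted p = 0.11). Baiap2 (log2 fold change 0.36, SE 0.057, limma adjusted p = 5.0e-04), Synpo (log2 fold change 0.26, SE 0.054, limma adjusted p = 0.0033) and Dlg1 (log2 fold change 0.25, SE 0.063, limma adjusted p = 0.010) were higher at 120 min. Without 60 min replicate 1, or without 120 min replicate 1, 13 of the 33 genes were lower. Both comparisons share the 120 min libraries.

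Markers of neurons and of other cell types were read at 120 min beside these genes. Of 19 neuron markers, 11 fell, none rose and 8 were not called at 120 min (57.9% lower, median log2 fold change -0.19), and their summed level was 5852 to 6105 CPM at 120 min, against 6699 to 7005 CPM in mock. The 33 postsynaptic genes summed to 5129 to 5174 CPM at 120 min, against 5686 to 5770 CPM in mock. The ratio of the 2 sums was 0.847 to 0.876 at 120 min, against 0.824 to 0.849 in mock, and these ranges overlapped. In bulk RNA, fewer neurons and less RNA per neuron cannot be told apart. Astrocyte markers, 4 of 12 higher and 1 lower, summed to 25972 to 27408 CPM at 120 min, against 24675 to 24737 CPM in mock. Of 12 microglia markers 10 fell, with sums of 230 to 240.4 CPM at 120 min, against 318 to 326 CPM in mock. No marker measured was at 0. The part of any of these in the results on postsynaptic genes was not tested.

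Although the cultures are labelled as neurons, the highest neuron markers, Slc17a7, Map2 and Nefl, averaged 887, 880.2 and 756 CPM in mock, beside 10521 CPM for the astrocyte marker Gfap, 2954 for Aqp4 and 2716 for S100b. Per kilobase, Gfap stood at 3914 CPM and Slc17a7 at 443. Oligodendrocyte markers (Mbp and Cnp among the highest) were lower for 2 of 10 and higher for none at 120 min, with sums of 1426 to 1471 CPM, against 1565 to 1646 CPM in mock. Vascular and fibroblast markers (Col3a1, Col1a1 and Flt1 highest) were higher for 1 and lower for 2 of 6, with sums of 2004 to 2170 CPM, against 2331 to 2492 CPM in mock. Cycling markers (Pcna, Top2a and Mcm2 highest) were higher for 1 and lower for 1 of 7, with sums of 177 to 193 CPM, against 169 to 175 CPM in mock. The highest microglia markers were C1qc, C1qa and C1qb, at 61.9, 58.2 and 56.1 CPM in mock.

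**Figure D4:**
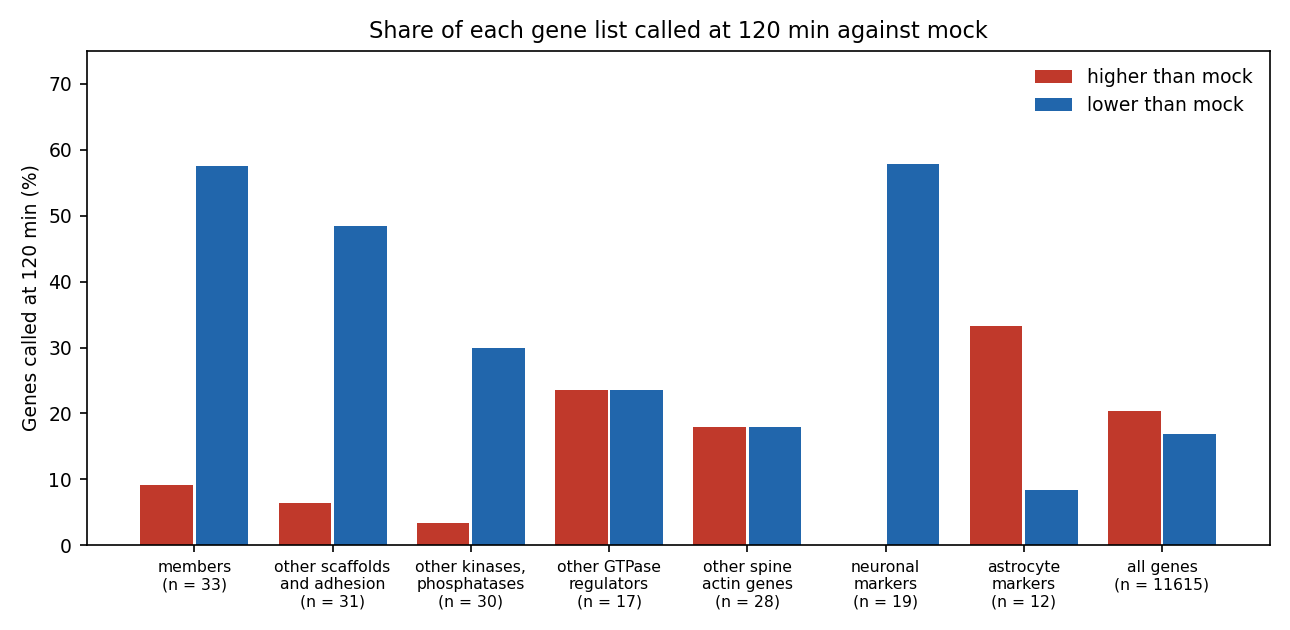
Percent of the measured genes of each list called higher (red) or lower (blue) at 120 min against mock (vertical axis), with the number measured under each list. The postsynaptic genes, with 57.6% lower and 9.09% higher, stand beside the neuron markers, with 57.9% lower and 0% higher, while 16.9% of all genes were lower and 20.4% higher.

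Other synaptic genes were read from 4 further lists. Of 31 other scaffold and adhesion genes, 15 fell and 2 rose at 120 min (48.4% and 6.45%, median log2 fold change -0.16). Among those with the smallest p were Lrfn5 (40.5 CPM at 120 min, against 52.8 CPM in mock, log2 fold change -0.37), Mpp2 (-0.35) and Nrxn2 (-0.26). Nrxn2 encodes a neurexin, which is presynaptic. Their limma adjusted p ranged from 2.5e-04 to 0.0010. The 2 that rose, named after their values were seen, were Homer1 (log2 fold change 0.29, SE 0.060, limma adjusted p = 0.0028) and Tanc1 (log2 fold change 0.22, SE 0.055, limma adjusted p = 0.0074). Of 30 other kinases, phosphatases and their regulators, 9 fell and 1 rose (30% and 3.33%, median -0.088). The riser was Prkcd, a protein kinase C that does not need calcium, with 62.1 ± 4.89 CPM at 120 min and 43.9 ± 1.34 CPM in mock (log2 fold change 0.49, SE 0.064, limma adjusted p = 1.1e-04). Cdk5 (log2 fold change -0.24, SE 0.044, limma adjusted p = 0.0014) and Prkaca (log2 fold change -0.20, SE 0.038, limma adjusted p = 0.0014), a catalytic subunit of protein kinase A, fell.

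The other lists did not lean to one side. Of 28 other spine actin genes 5 rose and 5 fell (17.9% each, median 0.020). Actn1, an actin cross-linker, had the largest rise, with 177 ± 21.1 CPM at 120 min and 104 ± 1.45 CPM in mock (log2 fold change 0.76, SE 0.065, limma adjusted p = 3.2e-06). Limk2 (log2 fold change 0.33, SE 0.042, limma adjusted p = 1.0e-04) and Actg1 (log2 fold change 0.18, SE 0.042, limma adjusted p = 0.0056) also rose, while Cyfip2 of the WAVE complex fell (log2 fold change -0.30, SE 0.054, limma adjusted p = 1.0e-03). Of 17 other small GTPases and their regulators 4 rose and 4 fell (23.5% each, median -0.031). Sipa1l2, a relative of the falling Sipa1l1, rose 2.01-fold, with 143 ± 1.08 CPM at 120 min and 70.7 ± 3.47 CPM in mock (log2 fold change 1.00, SE 0.053, limma adjusted p = 3.7e-08), while Sipa1l3, another relative, fell (log2 fold change -0.30, SE 0.074, limma adjusted p = 0.0082). Arf6, a GTPase on which Iqsec proteins act, rose, with 92.002 ± 0.361 CPM at 120 min and 58.2 ± 0.869 CPM in mock (log2 fold change 0.65, SE 0.043, limma adjusted p = 2.8e-07), while Iqsec2 fell. Rap1gap fell (log2 fold change -0.19, SE 0.042, limma adjusted p = 0.0042). At 60 min the calls in these 4 lists were Lrrtm1 (log2 fold change 0.20, SE 0.049, limma adjusted p = 0.028), Camk2n1 (log2 fold change 0.26, SE 0.067, limma adjusted p = 0.041), Camk2n2 (log2 fold change 0.50, SE 0.11, limma adjusted p = 0.013) and Arf6 (log2 fold change 0.25, SE 0.043, limma adjusted p = 0.0033), all higher, and Prkcd, which was lower (log2 fold change -0.27, SE 0.064, limma adjusted p = 0.025) before its rise at 120 min. Camk2n1 and Camk2n2 encode inhibitors of CaMKII. Over all genes 4.64% were higher and 1.96% lower at 60 min. Higher calls were 3.23% of the scaffold list, 6.67% of the kinase list and 5.88% of the GTPase list. Lower calls were 3.33% of the kinase list, and no spine actin gene was called.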

How the data were processed

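Poly(A) RNA of 10 cultures was sequenced. Build rn6 and the tools TopHat2 2.1.0, bcl2fastq, edgeR and HTSeq are named in the submitters' processing notes. The deposited values are CPM per gene and library, with the log2 fold changes, p-values and adjusted p-values of the authors' own comparisons. The deposited table repeats the mock libraries, and 6 such columns were not used. Reads per library were recovered from the steps between low CPM values, and the depth was 32961534 to 54040657, with every value within 0.01 of a whole read. The unit check did not take the columns as counts, so the tests use CPM.

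CPM were rescaled with TMM factors (30% and 5% trimmed), written here, and log2(CPM + 1) was fitted in limma 3.58.1 (R 4.3.3) with 1 mean per group over 10 libraries (5 residual degrees of freedom), a mean-variance trend and Benjamini-Hochberg adjustment over all 11615 genes. No filter on low values was used. The fit was tested on simulated data with an assumed spread and 100 genes changed at 120 min by each fold. It recovered 38% of the 1.2-fold and 92% of the 1.5-fold changes, and made 5 calls among unchanged genes. Far fewer genes were changed there than the 4329 called at 120 min in the data. The adjustment over all genes was therefore stricter, and these shares need not hold for the real comparison. Members and gene lists were chosen with earlier results of these data known. Genes called in any of the 5 comparisons are given in full, others with fewer values. Up to 4 called genes with the smallest p are named per further list, and the 3 highest markers per marker list; some genes these rules name are not reported here. Alternatives were other scaling factors, pseudocounts and filters, a fit of only the compared groups, a replicate block, omitted libraries and, added later, limma-voom. Deviations of same-numbered cultures correlated between groups at -0.16 to 0.27, which cannot decide whether replicate numbers pair the cultures.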

Additional observations from a re-analysis of the deposited data

Results flagged for a closer look

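For 23 of the 33 postsynaptic genes the 120 min and 60 min cultures differed from each other by a direct test (limma, 120 min minus 60 min on the log2(CPM + 1) scale, adjusted p under 0.05). By the same test 35.8% of all genes differed, with 16% lower and 19.8% higher. The lower genes included scaffolds, with differences of -0.34 for Shank1, -0.34 for Dlgap3, -0.30 for Dlg3, -0.29 for Dlgap1, -0.24 for Dlg2 and -0.19 for Shank3. Among CaMKII subunits the differences were -0.31 for Camk2a, -0.28 for Camk2g and -0.26 for Camk2b. Among regulators of small GTPases they were -0.31 for Kalrn, -0.28 for Agap2, -0.24 for Iqsec2, -0.22 for Sipa1l1 and -0.19 for Cnksr2. The neuroligins differed by -0.26 for Nlgn1, -0.24 for Nlgn3 and -0.18 for Nlgn2, and the spine proteins by -0.27 for Ppp1r9a, -0.17 for Ctnnd2 and -0.16 for Ppp1r9b. The 3 genes with a positive difference were Baiap2 at 0.36, Synpo at 0.26 and Dlg1 at 0.25.

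Of these 23 differences, 12 were called under all 18 alternatives. The call was lost without 60 min replicate 1 for Cnksr2, Dlg1, Iqsec2, Nlgn2, Ppp1r9a, Ppp1r9b, Shank3 and Sipa1l1, and without 60 min replicate 2 for Dlg2, Nlgn1 and Ppp1r9a. It was lost without 120 min replicate 1 for Cnksr2, Dlg2, Iqsec2, Nlgn1, Nlgn2, Ppp1r9a and Sipa1l1, and without 120 min replicate 2 for Dlg1, Iqsec2, Nlgn2, Nlgn3, Ppp1r9a, Ppp1r9b and Shank3. The highest adjusted p of these genes over the alternatives was between 0.061 for Nlgn3 and 0.18 for Iqsec2.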

How the results depend on the processing

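No call on a postsynaptic gene changed direction under any of the 18 alternatives. Of the 22 calls at 120 min against mock, 14 were made under all of them and 8 were lost under at least 1. With library totals in place of the TMM factors, which moved the median of all genes to -0.067 on the log2 scale at 120 min and the share of higher calls to 36.4% from 54.7%, 23 of the 33 were lower and 2 higher at 120 min, Agap2 was not called at 60 min (0 of 33 higher), and 3123 genes were lower over the table, against 1963. The share of higher calls under library totals was also 57.3% against 70.3% at 60 min, and 46.7% against 55.2% between 120 and 60 min.

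Leaving out each library in turn, with the lone library of that group assumed to vary like the other groups, gave 0 to 1 of the 33 lower at 5 min, 0 to 2 higher at 60 min, 12 to 20 lower and 2 to 3 higher at 120 min, and 13 to 22 lower and 2 to 3 higher between 120 and 60 min. Over all genes it gave 0 to 111 higher and 0 to 588 lower at 5 min, 0 to 9 higher and 0 to 3 lower at 10 min, 341 to 600 higher and 89 to 289 lower at 60 min, 1664 to 2555 higher and 1108 to 2210 lower at 120 min, and 1597 to 2516 higher and 1095 to 2062 lower between 120 and 60 min. At 10 min, the 4 higher genes became 2 with library totals, median-of-ratios factors, only the compared groups or limma-voom, and 9 without both 5 min libraries, which also gave 3 lower genes.

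With the replicate block, 17 of the 33 were lower (Agap2 and Ppp1r9b lost their calls) and 3 higher at 120 min, and 1 gene was lower over the table at 10 min. Correlations of same-numbered deviations were -0.16 to 0.27. The cause of these shifts was not tested. The 2 count tests foreseen were not run, as the deposited values are CPM, although whole reads could be recovered from them. With 2 cultures per group and 5 residual degrees of freedom, the standard errors of the 33 genes were 0.037 to 0.093 on the log2 scale.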
